A study of Mus musculus with 8 samples.

Results

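Myl4, Myl7 and Sln, 3 genes of atrial muscle, were taken by symbol from the 32285 genes that each file lists, and all 3 symbols were found in every file. They were selected in earlier readings of the same counts. The choice used their levels in heart sections against libraries of dissociated heart, in non-myocyte barcodes of each library, and their differences between libraries. Those differences therefore stand here as a description. The measurements were spatial transcriptomes (ST) of 4 heart sections and scRNA-seq of 4 libraries, with a single section and a single library for sham and for each TAC group (TAC-2w, TAC-4w, TAC-6w). The animals were wild type male C57BL/6J mice, 8 weeks old at surgery by the methods. They had sham surgery, in which the aorta was not tied, or transverse aortic constriction (TAC), a ligature on the aortic arch that puts pressure on the left ventricle, 2, 4 or 6 weeks earlier. Age at sampling therefore differed between the TAC groups. For sham the labels give no time after surgery, so its age at sampling is not known here. How many hearts went into a sample, and which chambers, was not given in the sources used here. The labels speak of nuclei where the methods speak of cells from a collagenase digest, and the barcodes are called cells here without deciding this.

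The sections held 1228 to 2193 spots and 25996378 to 48754396 UMIs (unique molecular identifiers, counted molecules), of which 42.2 to 51.5% were mitochondrial. The libraries held 5854 to 10275 barcodes and 28793316 to 86671674 UMIs, with 2.96 to 6.18% mitochondrial. A level is the summed UMI count of a gene per 1000000 UMIs (CPM), a scale without correction for gene length. Because each group was a single sample, no test between conditions was made. Every interval is an exact 95% interval for counting error alone and leaves out the spread between animals. By the sample labels the sham and TAC-2w sections shared a batch, as did the sham and TAC-6w libraries. The other conditions and their batches cannot be told apart. Pairs of libraries shared between 9 and 30 barcode sequences.

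Myosin of heart muscle carries a regulatory and an essential light chain, and both come in chamber forms. Myl7 encodes the regulatory light chain of the atria and Myl2 that of the ventricles. Myl4 encodes the essential light chain of the atria, also made in embryonic muscle, and Myl3 that of the ventricles. Sln encodes sarcolipin, a small membrane protein that inhibits the calcium pump SERCA in the atria, where phospholamban, encoded by Pln, does so mainly in the ventricles. In the adult heart the atrial forms are therefore used as marks of atrial muscle.

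In RefSeq (GRCm38.p6) Myl7 (ENSMUSG00000020469) lies on chr11:5896637-5898782, Myl4 (ENSMUSG00000061086) on chr11:104546017-104587215 and Sln (ENSMUSG00000042045) on chr9:53850251-53853849. The promoter table held 2 of the 3 genes, Myl4 and Myl7. The 250 bases before the start of Myl7 (chr11:5898783-5899032, minus strand), an intergenic stretch directly upstream of the gene, are shown beside those of Myl3 (chr9:110763428-110763677, plus strand), a ventricular light chain gene and the counterpart of Myl4, because both hold a CArG box, the element bound by serum response factor in muscle promoters. Capitals mark the motifs found.
Myl7: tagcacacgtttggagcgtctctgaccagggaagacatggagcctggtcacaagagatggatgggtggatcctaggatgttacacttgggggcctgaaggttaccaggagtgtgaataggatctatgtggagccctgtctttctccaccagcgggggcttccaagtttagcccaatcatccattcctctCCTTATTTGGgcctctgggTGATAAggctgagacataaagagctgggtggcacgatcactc
Myl3: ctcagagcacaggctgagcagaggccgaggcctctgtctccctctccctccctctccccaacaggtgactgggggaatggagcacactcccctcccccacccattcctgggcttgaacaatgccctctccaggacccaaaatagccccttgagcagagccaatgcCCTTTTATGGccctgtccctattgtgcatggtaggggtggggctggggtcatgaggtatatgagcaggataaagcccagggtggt
In Myl7 the CArG box CCTTATTTGG spanned the bases 61 to 52 before the start, and the motif TGATAA spanned the bases 42 to 37. The 2 entries of Myl2, the counterpart of Myl7, held no CArG box. In Myl3 the box CCTTTTATGG spanned the bases 85 to 76. Both strands were searched for the CArG box, for the GATA-type motif in the form TGATAA and in the form AGATAA, and for a TATA box by its letters TATAAA. No match overlapped another. The entry for Myl4 (chr11:104550413-104550662, plus strand), which lies inside the span of the gene, held none of these letters. Of the 32851 promoter entries of the same length 1.47% held a CArG box. The shares were 7.94% for TGATAA, 9.99% for the motif AGATAA and 12.4% for the TATA box. These matches describe the letters only.

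The sections held almost no transcripts of these 3 genes, although Nppa, the gene of atrial natriuretic peptide, which stressed ventricles also express, was at 106 to 1919.7 CPM. The sham section had 9 UMIs of Myl7, TAC-2w had 11, TAC-4w had 51 and TAC-6w had 32, which are 0.346, 0.226, 1.60 and 0.663 CPM. In the same order Myl4 had 31, 93, 28 and 69 UMIs, or 1.19, 1.91, 0.877 and 1.43 CPM. In the order of levels the 95% intervals of neighbouring sections overlap for both genes, except those of Myl7 at TAC-4w (1.19 to 2.10) and TAC-6w (0.453 to 0.936). Sln had no UMI in the sham, TAC-2w and TAC-4w sections, with 95% intervals up to 0.142, 0.0757 and 0.115 CPM, and 2 UMIs (0.0414 CPM) at TAC-6w. The same sections were full of the ventricular forms, with Myl2 at 8219 to 10570.2 CPM, Myl3 at 6102 to 7417 CPM and Pln at 2400.1 to 3297 CPM. Each of these was detected in at least 99.9% of the spots of every section.

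The libraries fell into a pair with much atrial RNA and a pair with little. Myl7 had 10192 UMIs in the sham library and 11146 at TAC-2w, against 247 in TAC-4w and 55 in TAC-6w. In CPM these are 118 (95% interval 115 to 119.9), 142 (139 to 144), 5.12 (4.50 to 5.80) and 1.91 (1.44 to 2.49). Myl4 had 9492, 11911, 537 and 202 UMIs, or 109.5, 152, 11.1 and 7.02 CPM. Sln had 5748, 6541, 183 and 24 UMIs, or 66.3, 83.2, 3.79 and 0.834 CPM. All 3 genes had the same order of libraries, TAC-2w, sham, TAC-4w and TAC-6w from high to low. The 95% intervals of neighbours in that order did not overlap for any of them. These intervals treat every UMI as independent, whereas few barcodes held most of the UMIs at sham and TAC-2w, so they are too narrow for the sampling of cells. The order of TAC-4w and TAC-6w rests on 1 barcode for Myl7 and Sln, since without the richest barcode of TAC-4w they stood there at 0.849 and 0.684 CPM, below TAC-6w.

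**Figure D1:**
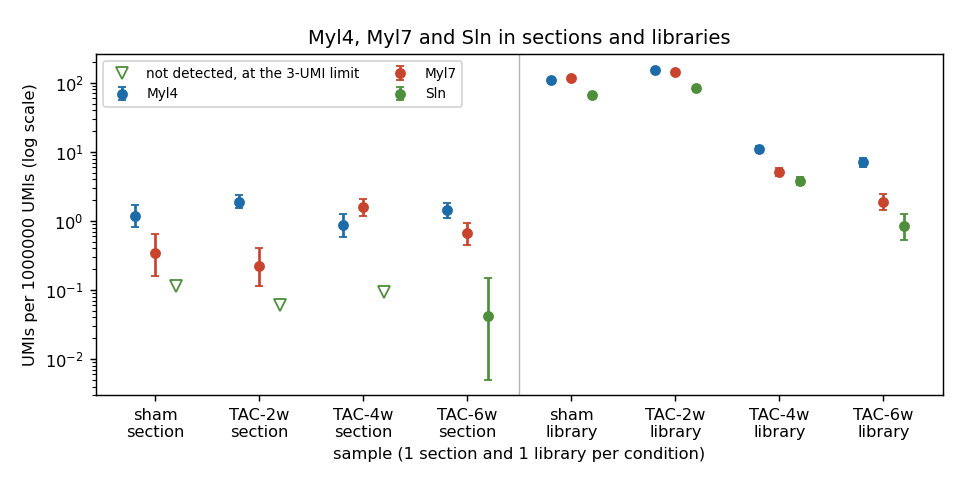
Level of Myl4, Myl7 and Sln in the 4 sections and the 4 libraries, in UMIs per 1000000 UMIs on a log scale, with exact Poisson 95% intervals. Open triangles mark Sln where it had no UMI, at the limit that 3 UMIs would give. In the sections every point lies under 2 CPM, whereas the sham and TAC-2w libraries lie between 66.3 and 152 CPM.

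Against sham, the TAC-2w library had 1.21-fold Myl7 (1.17 to 1.24), 1.38-fold Myl4 (1.35 to 1.42) and 1.26-fold Sln, so none of the 3 genes was past 2-fold, where 1.66% of the genes with at least 50 UMIs were. With only the barcodes that pass the filters of the methods, Myl7 was at 1.05-fold. In the TAC-4w library Myl7 was 23.0-fold lower (20.3 to 26.2), Sln 17.5-fold lower (15.1 to 20.4) and Myl4 9.85-fold lower (9.03 to 10.8). All 3 were past 2-fold, and so were 32.4% of all genes tested in that library. In the TAC-6w library, which shared its batch label with sham, Sln was 79.6-fold lower (53.4 to 124), Myl7 61.6-fold lower (47.3 to 81.8) and Myl4 15.6-fold lower. All 3 were again past 2-fold, where 9.20% of all genes were. Sln, with 24 UMIs at TAC-6w, reached 50 UMIs only through sham. The 3 genes were selected on differences between libraries too, so nothing is read from the counts past 2-fold. Whether a library held fewer atrial cells or less RNA per cell cannot be told apart from these sums.

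A list of other atrial genes was lower at TAC-4w and TAC-6w in part. Of the 12 on the list, 11 could be tested at TAC-4w, with 6 past 2-fold lower and 2 past 2-fold higher, at a median ratio of 0.345. Of all genes 18.6% were lower and 13.8% higher there, with a median of 0.927. At TAC-6w 5 of 11 were past 2-fold lower and none higher, at a median of 0.608, where 6.21% of all genes were lower and their median was 0.957. Mybphl, an atrial myosin-binding protein, had 246 and 421 UMIs in the sham and TAC-2w libraries and 7 and 1 in the others. Bmp10, a growth factor of the atrial wall, had 72 and 356 UMIs against 1 and 1. Hamp had 325 and 236 against 2 and 18. These 3 reached 50 UMIs only through sham, so the counts of lower genes are given without a reading. Pam and Nr2f1, also lower at TAC-4w, lay mostly outside atrial-rich barcodes. In sham, barcodes with at least 20 UMIs of Myl4, Myl7 and Sln held 363 of 24681 Pam UMIs and 4 of 782 Nr2f1 UMIs. Kcna5, the potassium channel gene, and Gja5, the connexin of atrial muscle, arteries and conduction fibres, went the other way at TAC-4w, at ratios of 3.76 (3.34 to 4.25) and 8.13 (6.91 to 9.62). Ventricular genes and those of all heart muscle were lower as well. Of the 6 ventricular genes 4 could be tested, with 2 lower at TAC-4w (median 0.505) and 4 at TAC-6w (median 0.383), and of the 8 genes of all cardiomyocytes 6 were lower at TAC-4w (median 0.339) and 7 at TAC-6w (median 0.181).

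To set the atrial forms apart from the amount of heart muscle, each was read as its share in the pair with its ventricular counterpart, within 1 sample. Myl7 made up 41.5% of the Myl7 and Myl2 UMIs of the sham library (40.9 to 42.1), 54.8% in TAC-2w, 4.82% in TAC-4w and 2.61% in TAC-6w (1.97 to 3.39). Myl4 made up 55.7, 70.3, 19.1 and 19.3% of Myl4 and Myl3, and Sln 48.4, 55.3, 10.9 and 5.65% of Sln and Pln. In all 3 pairs the share was lower at TAC-4w and TAC-6w than in the other libraries. The pairs of Myl4 and Sln do not count heart muscle alone. At TAC-4w B cell-like cells held 163 of the 537 Myl4 UMIs, and Pln was at 505 CPM in smooth muscle cell or pericyte-like cells of TAC-2w. These shares are therefore not read as fractions of atrial muscle. Over barcodes with under 20 UMIs of the 3 genes Myl7 made up 11.3, 20.4, 0.833 and 1.96%, so that TAC-4w then lay below TAC-6w, and the share of Sln at TAC-4w was 2.22%. In the sections the same share of Myl7 was 0.00328% at sham, 0.00215% in TAC-2w, 0.0194% in TAC-4w and 0.00680% in TAC-6w.

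Set side by side within a condition, the libraries exceeded the sections for every gene in which a value could be given. The section and library of each TAC group shared a batch label, but those of sham did not. In sham, Myl4 was 91.8-fold higher in the library (64.7 to 135), Myl7 339.7-fold (179 to 743) and Sln at least 575-fold, counting 3 UMIs for the section. At TAC-2w the values were 79.5-fold for Myl4, 629-fold for Myl7 and at least 1353-fold for Sln. At TAC-4w they came down to 12.7-fold for Myl4, 3.2-fold for Myl7 (2.36 to 4.42) and at least 40.4-fold for Sln. At TAC-6w they were 4.91-fold for Myl4, 2.88-fold for Myl7 and 20.1-fold for Sln, the last with an interval from 5.00 to 176 because the section had 2 UMIs. Past 2-fold were 3 of 3 genes at sham, TAC-2w and TAC-4w and 2 of 2 tested at TAC-6w, where 71.0, 71.8, 64.3 and 61.6% of all genes were past 2-fold in either direction. The 3 genes were selected on this contrast, so nothing is read from that count. The median ratio of all genes was 2.73, 2.80, 2.04 and 1.93, of which the last values stand beside 3.2 and 2.88 for Myl7. With totals that leave out mitochondrial and ribosomal-RNA-like features Myl7 was within 2-fold at TAC-6w, at 1.69 (1.07 to 2.70). Genes of all cardiomyocytes lay on the other side, with 8 of 8 past 2-fold lower in the library of every condition, at median ratios of 0.0252, 0.0269, 0.0106 and 0.00395.

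**Figure D2:**
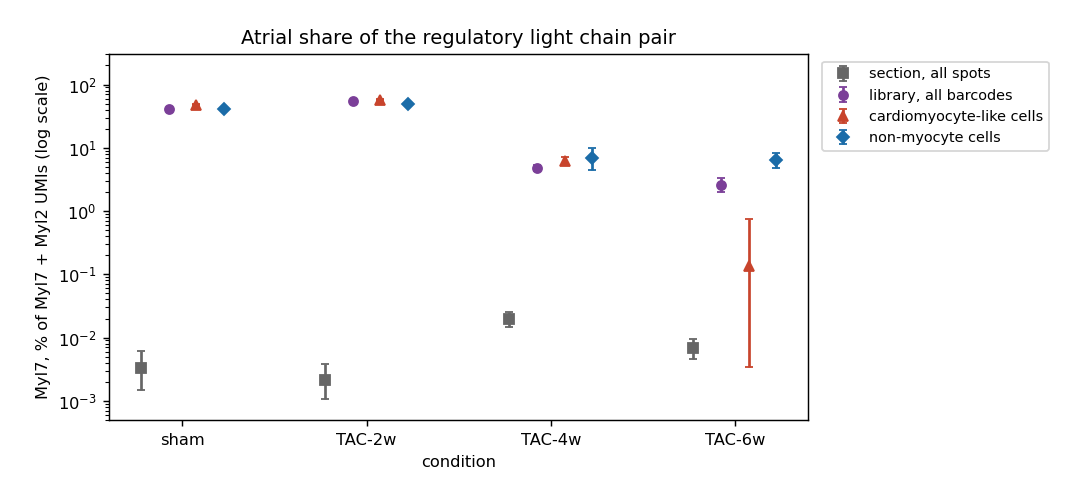
Share of Myl7 among the UMIs of Myl7 and Myl2, in percent on a log scale, for all spots of a section, all barcodes of a library, its cardiomyocyte-like cells and its non-myocyte cells, with exact Clopper-Pearson 95% intervals. All 4 sections lie under 0.02%, and the sham and TAC-2w libraries lie at 41.5 and 54.8%.

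Few barcodes carried most of the atrial RNA in the sham and TAC-2w libraries. Barcodes with at least 20 UMIs of the 3 genes together, a bound chosen after the values were seen, numbered 143 of 10275 at sham, 160 of 7924 in TAC-2w, 2 in TAC-4w and 1 in TAC-6w. They held 81.3, 78.4, 53.2 and 8.19% of the UMIs of the 3 genes. In 141 of the 143 and in all 160 barcodes Myl7 exceeded Myl2. The bound counts Myl7 itself, so a high Myl7 is partly built into this choice and nothing is read from that order. Some of the other atrial genes, which the bound does not count, were also higher in these barcodes. In sham Nppa was at 16861 CPM in these barcodes and 64.0 CPM in the rest, Mybphl at 267 and 0.582 CPM, Stard10 at 519.7 and 7.61 CPM and Bmp10 at 40.9 and 0.489 CPM. Others on the list did not, with Dkk3 at 87.3 and 90.3 CPM, Nr2f2 at 9.55 and 36.1 CPM, Nr2f1 at 5.46 and 9.05 CPM and Kcna5 at 0 and 4.72 CPM. Genes outside the atrial list were higher there too. In sham Tnnt2 and Myh6, genes of all cardiomyocytes, were at 5673 and 87.4 CPM and at 2456 and 45.7 CPM. Of the ventricular genes, Pln was at 1671 and 56.9 CPM, Myl3 at 495 and 83.8 CPM and Myl2 at 806 and 160.2 CPM. Irx4 and Hey2 were not higher. At TAC-2w Nppa was at 16822 and 117 CPM, Mybphl at 291 and 0.982 CPM and Myh6 at 4757 and 65.3 CPM, whereas Myl2 was lower, at 37.9 and 118 CPM. Myl1, a light chain gene of fast skeletal muscle, was at 779 and 2.12 CPM in sham and at 637 and 3.26 CPM at TAC-2w.

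These barcodes were small and rich in mitochondrial RNA, with a median of 3342 UMIs at sham and 4692.5 at TAC-2w and median mitochondrial shares of 12.9 and 15.1%. The filter on the mitochondrial share took out 65 of the 143 and 80 of the 160. Of the others, 51 and 42 fell into the cluster of cardiomyocyte-like cells. That cluster held 106 cells at sham, 74 in TAC-2w, 23 in TAC-4w and 10 in TAC-6w. Among those with at least 10 UMIs of Myl7 and Myl2, Myl7 made up over 90% in 47 of 99 at sham, 41 of 69 in TAC-2w, 1 of 22 in TAC-4w and 0 of 10 in TAC-6w. Shares between 10 and 90% were seen in 3 cells at sham and in none of the other libraries. At TAC-6w the 10 cardiomyocyte-like cells held 1 Myl7 UMI and 730 Myl2 UMIs.

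**Figure D3:**
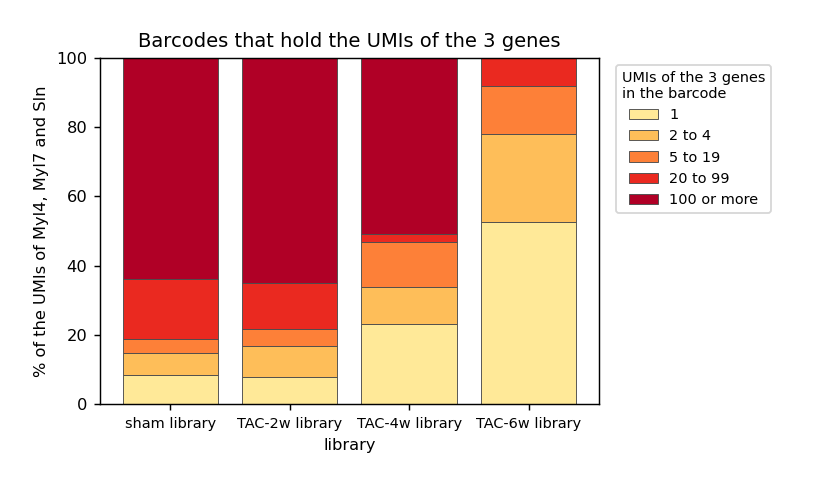
Share of the UMIs of Myl4, Myl7 and Sln, in percent, that lay in barcodes with 1, 2 to 4, 5 to 19, 20 to 99 or at least 100 such UMIs, for each library. Barcodes with at least 100 held 63.8% at sham, 64.9% at TAC-2w and 50.9% at TAC-4w, where it was a single barcode, and none at TAC-6w.

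At TAC-4w 1 cardiomyocyte-like barcode of the library held 206 of the 247 Myl7 UMIs, 136 of the 537 Myl4 UMIs and 150 of the 183 Sln UMIs, beside 700 UMIs of Nppa and 3 of Myl2. Without it Myl7 was at 0.849 CPM, 138-fold lower than in sham (102 to 193), Sln 97.0-fold lower (69.0 to 141) and Myl4 13.2-fold lower (11.9 to 14.6). The order of library and section then turned for Myl7 at TAC-4w, where the library had 0.532-fold the level of the section. The other rich barcode at TAC-4w belonged to no named type and had 22 UMIs of Myl4 and none of Myl7, Sln, Myl2 or Nppa. At TAC-6w the richest barcode was macrophage-like, with 8 UMIs of Myl4, 14 of Myl7, 1 of Sln and 41 of Nppa. Without it Myl7 was 82.6-fold lower than in sham (60.8 to 115).

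The 3 genes were also read in cells of named types other than cardiomyocyte-like. They numbered 7452 at sham, 5842 in TAC-2w, 6128 in TAC-4w and 5249 in TAC-6w, with median depths of 9073, 10653.5, 4378 and 4690 UMIs. Myl7 was at 24.2 CPM in the sham cells (23.0 to 25.4), 35.6 at TAC-2w (34.1 to 37.1), 0.750 at TAC-4w (0.490 to 1.10) and 1.86 at TAC-6w (1.37 to 2.46). Myl4 was at 26.8, 40.6, 7.47 and 6.14 CPM, and Sln at 12.9, 18.6, 0.721 and 0.812 CPM. All 3 genes were lower at TAC-4w and TAC-6w than in sham and TAC-2w. For Myl7 and Sln TAC-4w lay below TAC-6w, the reverse of the whole libraries, with overlapping intervals for Sln. For Myl7 this order rests in part on 1 macrophage-like cell of TAC-6w, which held 14 UMIs of it. How much of this was RNA free in the suspension, doublets or RNA of the cells themselves was not tested.

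In these cells TAC-2w was 1.47-fold sham for Myl7 (1.38 to 1.57), 1.51-fold for Myl4 and 1.44-fold for Sln, with 0 of 3 genes past 2-fold, where 1.27% of all genes were. At TAC-4w Myl7 was 32.2-fold lower (21.9 to 49.5), Sln 17.9-fold lower (12.0 to 27.8) and Myl4 3.59-fold lower (3.15 to 4.10). The cell types in these sums differed, with 4319 fibroblast-like and 1623 macrophage-like cells in sham against 2427 B cell-like and 1254 neutrophil-like cells at TAC-4w. Over immune cells only the ratio of Myl7 was 0.00912 (0.00436 to 0.0169) where it was 0.0310 over all these cells, and with cells thinned to 1000 UMIs it was 0.0112 (0.00134 to 0.0408). At TAC-6w Sln was 15.9-fold lower (10.3 to 25.8), Myl7 13.0-fold lower (9.78 to 17.7) and Myl4 4.36-fold lower (3.71 to 5.16). All 3 genes were past 2-fold at both times, where 33.7% of all genes were at TAC-4w and 7.91% at TAC-6w. At TAC-4w Myl7 and Sln, with 26 and 25 UMIs in these cells, reached 50 UMIs only through sham. The 3 genes were selected on these levels, so nothing is read from that count. Of the genes of all cardiomyocytes, 8 of 8 were past 2-fold lower in these cells at TAC-4w (median 0.235) and 6 of 8 at TAC-6w (median 0.291).

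The shares of non-myocyte cells with a UMI depend on depth. With at least 1 Myl7 UMI were 12.9% of these cells at sham, 20.8% in TAC-2w, 0.392% in TAC-4w and 0.552% in TAC-6w. Thinned to 1000 UMIs, which left out 192, 175, 347 and 222 shallower cells, the shares were 2.60, 3.64, 0.0346 and 0.199%, and the TAC-4w share rested on 2 UMIs. For Myl4 the thinned shares were 2.85, 4.06, 0.727 and 0.756%. The sham and TAC-2w libraries stayed above the others for both genes at equal depth.

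The proportions of the 3 genes to each other were compared within each library. Myl4, Myl7 and Sln made up 35.8, 40.8 and 23.4% of their summed UMIs in the rich barcodes of sham and 43.6, 36.7 and 19.7% in the non-myocyte cells with under 20 such UMIs, so that Myl7 led in the first and Myl4 in the second. At TAC-2w Myl4 and Myl7 made up 39.0 and 37.9% in the rich barcodes and 44.5 and 36.5% in those cells. In the other libraries the share of Myl4 was larger, with 83.5, 8.39 and 8.06% in the non-myocyte cells of TAC-4w and 69.7, 21.1 and 9.21% in those of TAC-6w. There Myl4 dominated, although its level too was lower than in sham.

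Levels differed between cell types of a library. In the sham library, over 11 types with at least 50 cells, Myl7 ran from 13.9 CPM in fibroblast-like cells to 175 CPM in platelet-like cells, with a median of 41.6. The platelet-like value came from 10 UMIs in 52 cells of a median depth of 899 UMIs, against 10538 UMIs in the fibroblast-like cells. Macrophage-like cells stood at 51.9 CPM of Myl7 (48.0 to 56.1), above fibroblast-like cells (12.9 to 15.0). At TAC-2w the 8 types ran from 17.8 CPM in smooth muscle cell or pericyte-like cells to 81.5 CPM in T cell-like cells. Cells with at least 20 UMIs of the 3 genes contributed unevenly to this, with 80.4% of these UMIs in the smooth muscle cell or pericyte-like cells of sham, 28.5% in the macrophage-like and 7.28% in the fibroblast-like cells. In the T cell-like cells of TAC-2w 1 cell held 42.0% of them.

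**Figure D4:**
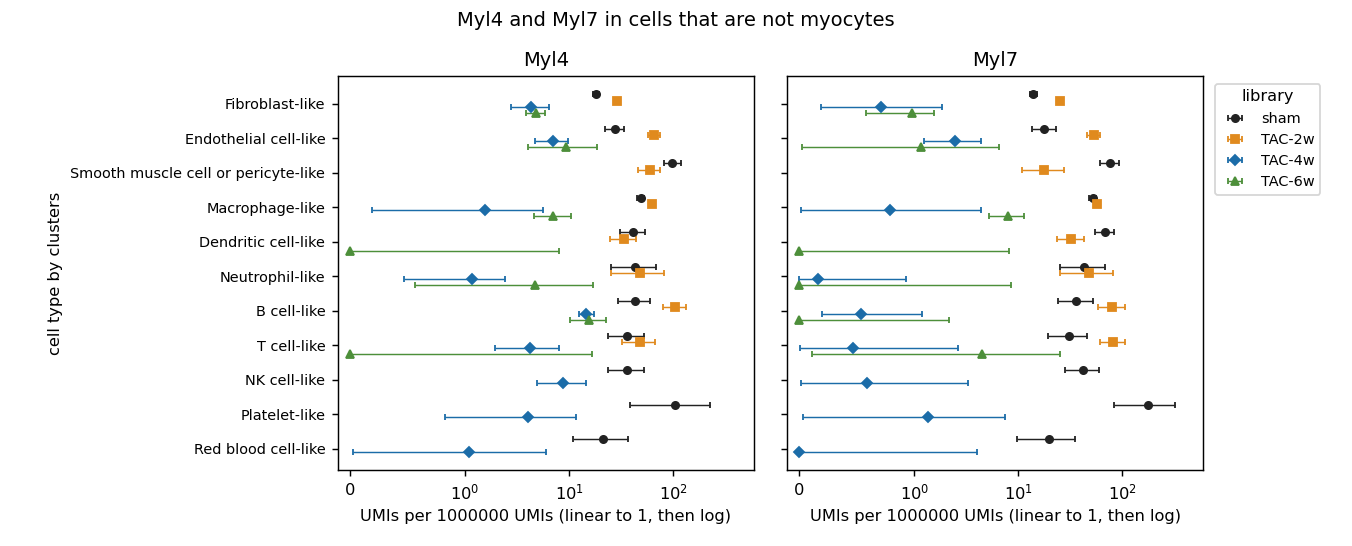
Level of Myl4 (left) and Myl7 (right), in UMIs per 1000000 UMIs (linear to 1, then log), in each non-myocyte cell type with at least 50 cells, with exact Poisson 95% intervals and 1 symbol per library. Cells of unnamed clusters are not shown. The TAC-4w and TAC-6w symbols lie left of the sham symbol in every type shown. For Myl4 the B cell-like cells are the highest of the types shown in both, at 14.7 and 15.6 CPM.

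B cell-like cells of the later libraries held Myl4 with little Myl7 or Sln. At TAC-4w, where they were 2427 cells, Myl4 had 163 UMIs or 14.7 CPM (12.5 to 17.2), while Myl7 and Sln had 6 UMIs each or 0.542 CPM (0.199 to 1.18). At TAC-6w 915 cells held 27 Myl4 UMIs, or 15.6 CPM (10.3 to 22.6), and none of Myl7 and Sln (interval up to 2.13 CPM). These B cell-like values were below the 43.0 CPM of sham and the 104 CPM of TAC-2w, where Myl7 was at 36.2 and 79.5 CPM. The next types at TAC-4w, among named types with at least 50 cells, were NK cell-like cells at 8.81 CPM and endothelial cell-like cells at 6.93 CPM of Myl4. The ranking and the non-myocyte sums leave out unnamed clusters. All kept cells of TAC-4w held 481 Myl4 UMIs, of which named non-myocyte types held 259 and cardiomyocyte-like cells 137, with the rest in unnamed clusters.

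Single barcodes with at least 5 UMIs of Myl4 and none of Myl7 and Sln, a bound chosen after the values were seen, numbered 23 over the 4 libraries, with 14 of them at TAC-4w, 4 at TAC-2w, 3 at sham and 2 at TAC-6w. They held 131 Myl4 UMIs at TAC-4w, 22 at TAC-6w, 20 at sham and 21 at TAC-2w. These were 24.4 and 10.9% of all Myl4 UMIs of the TAC-4w and TAC-6w libraries. At sham and TAC-2w, where the Myl4 totals were far larger, they were 0.211 and 0.176%. A bound without Myl7 and Sln is also harder to meet where these are frequent, so nothing is read from the contrast between libraries. Of the 23, 8 lay in the unnamed cluster led by genes of dividing cells, 7 were B cell-like and 5 failed the filters. Cd79a, which encodes a part of the B cell receptor, was seen in 18 and in 96.9% of the B cell-like cells. Vpreb3, a gene of developing B cells, was seen in 18 and in 54.9%. Rag1, which encodes a recombinase of lymphocyte precursors, was seen in 9 and in 0.804% of the 3730 B cell-like cells. Il7r, the receptor for the cytokine IL-7, was seen in 16 and in 2.49%, and Mki67, a gene of dividing cells, in 13 and in 0.912%. The B cell-like cells leave out the unnamed dividing cluster by the naming rule, so nothing is read from the contrast in Mki67. Ms4a1, which encodes CD20 of mature B cells, was seen in 1 of the 23 and in 75.9% of the B cell-like cells. These 23 held 2 UMIs of Myl2. The marker genes too were chosen after the barcodes were seen, so this is a description of 23 barcodes.

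In the sections no spot was of an atrial type, defined as one with at least 10 UMIs of Myl7 and Myl2 and at least 0.5 of them from Myl7. With 1674, 2059, 1226 and 2188 spots measured, a count of 0 allows shares of up to 0.179% at sham, 0.146% in TAC-2w, 0.245% in TAC-4w and 0.137% in TAC-6w. The highest share of Myl7 in any spot was 1.12, 0.610, 2.05 and 2.03%. A spot can hold several cells of different types, so this describes spots and not cells.

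Against sham, Myl7 was at a ratio of 0.652 in the TAC-2w section (0.246 to 1.78), which shared its batch label. The ratio was 4.61 in the TAC-4w section (2.25 to 10.7) and 1.91 in that of TAC-6w (0.893 to 4.56). Myl4 was at 1.60 (1.06 to 2.49) in TAC-2w, 0.735 (0.425 to 1.27) in TAC-4w and 1.20 (0.774 to 1.89) in TAC-6w. Per UMI of a total without mitochondrial and ribosomal-RNA-like features, Myl4 at TAC-2w was at 1.37 (0.903 to 2.13). Only 1 gene of the 3 reached 50 UMIs in each comparison. Myl4 was within 2-fold at TAC-2w and at TAC-6w, where 1.24 and 4.91% of all genes were past it. Myl7 entered the comparison at TAC-4w only through the 51 UMIs of that section, so its place past 2-fold, where 6.06% of all genes were, is given without a reading. Most markers of the mesothelium, the cell layer that covers the heart, had more UMIs in the TAC-4w and TAC-6w sections than in the others. Msln had 62 UMIs in sham, 59 in TAC-2w, 198 in TAC-4w and 254 in TAC-6w, and Upk3b had 44, 42, 161 and 193. Wt1, another of them, had 105, 108, 91 and 247. The sections differ in depth, and by CPM Wt1 was lowest at TAC-2w. By CPM, 4 of 5 tested markers were past 2-fold higher than sham at TAC-4w and 3 of 4 at TAC-6w. Of all genes, 5.28 and 4.66% were. Upk3b, Upk1b and Krt19, with 44, 6 and 14 UMIs in sham, reached 50 only through a TAC section where they were high. Nothing is therefore read from these marker counts. The part of these markers in the Myl7 values was not tested.

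Myl7 and Myl4 differed in where they lay in the section. Of the Myl7 UMIs 7 of 9 lay in edge spots at sham, 8 of 11 in TAC-2w, 39 of 51 in TAC-4w and 20 of 32 in TAC-6w. Edge spots, which have fewer than 6 neighbours over tissue, held 13.7, 9.15, 10.7 and 9.69% of all UMIs. The level of Myl7 at the edge was 1.97, 1.79, 11.4 and 4.28 CPM, and in the interior 0.0891, 0.0677, 0.421 and 0.275 CPM. Thus the edge was 22.1-, 26.5-, 27.1- and 15.5-fold higher, and 22.0-fold (14.1 to 35.0) with the 4 sections summed. It was higher in 4 of 4 sections. The edge was examined after the positions of the Myl7 spots had been seen, so no test is given.

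Myl4 had 3 of 31, 10 of 93, 4 of 28 and 5 of 69 UMIs at the edge, 0.953-fold the interior over the 4 sections (0.584 to 1.48), and was higher at the edge in 2 of 4. Over the 4 sections summed, Myl4 was within 2-fold. Myl7 reached 50 UMIs only through the edge, so its place past 2-fold, where 1.04% of all genes were higher at the edge, is given without a reading. Among the mesothelial markers Msln was 12.3-, 13.5-, 18.7- and 15.1-fold higher at the edge in the 4 sections and Upk3b 13.5-, 14.6-, 21.5- and 11.8-fold, whereas Wt1, which other cells of the heart also express, had 12 of 105, 8 of 108, 15 of 91 and 24 of 247 UMIs there. Ventricular genes had 0 of 6 past 2-fold, at a median of 0.995. Of the other atrial genes 8 could be tested over the 4 sections summed, with 0 past 2-fold higher at the edge and 2 lower, at a median of 0.873. Of all genes 1.30% were lower there. Nppa at the edge was at 0.176, 0.162, 0.267 and 0.369 of the interior in the 4 sections.

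**Figure D5:**
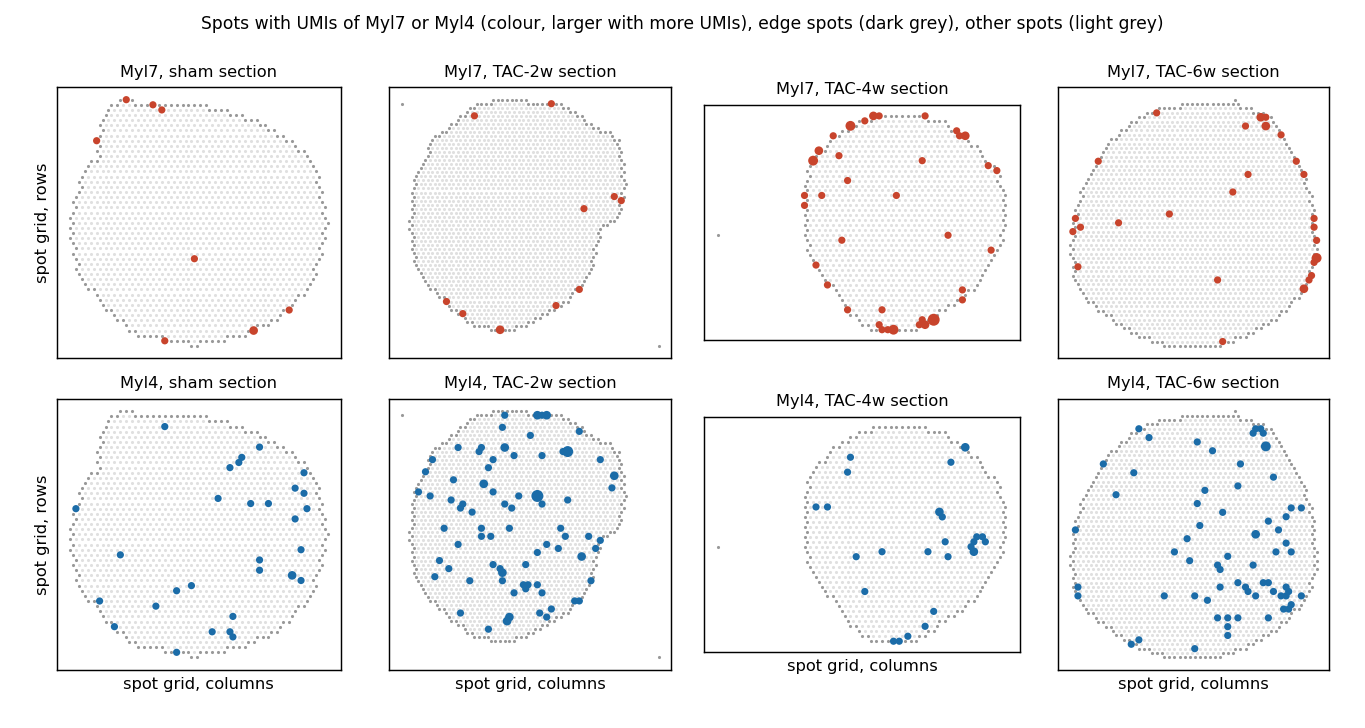
Positions of the spots with UMIs of Myl7 (upper row) and Myl4 (lower row) on the spot grid of the 4 sections, larger with more UMIs. Edge spots are dark grey, including single spots set apart from the tissue, and interior spots light grey. Most Myl7 symbols follow the rim of the tissue, and the Myl4 symbols lie mostly over the interior.

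Within the edge, the spots with Myl7 had more mesothelial RNA than those without. The summed level of the 6 mesothelial markers was 178 CPM in the 6 edge spots with Myl7 at sham and 19.9 CPM in the other edge spots. At TAC-2w it was 64.3 and 15.5 CPM, at TAC-4w 212 and 67.9 CPM, and at TAC-6w 241 and 61.1 CPM. The difference at the edge had the same direction in 4 of 4 sections for Myl7. Among interior spots the level with and without Myl7 was 0 and 6.16 CPM at sham and 0 and 3.53 CPM at TAC-2w. There it was 47.9 and 7.73 CPM at TAC-4w and 32.9 and 10.3 CPM at TAC-6w. For Myl4, the 3 edge spots with it at sham had 0 against 29.4 CPM, and the 8 at TAC-2w had 15.7 against 18.8 CPM. The 3 at TAC-4w had 272 against 95.9 CPM, and the 5 at TAC-6w had 167 against 78.6 CPM. In the libraries 5 barcodes had at least 4 of the 6 mesothelial markers, 1 at sham and 4 at TAC-2w, of which 2 were kept, 2 were removed as doublets and 1 failed the filters. They held 23 UMIs of Myl7, 1 of Myl4, none of Sln and 1 of Myl2.

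The genes whose pattern was most like that of Myl7 across spots, by the mean Pearson r over the 4 sections among 6440 genes, were Rarres2, C3, Inmt, Efemp1 and Igfbp6, at 0.11 to 0.13. For Myl4 the 5 highest, led by C3, were at 0.054 to 0.063, and Myl4 and Myl7 correlated with each other at 0.038. Across the cells that were not cardiomyocyte-like, with 5389 to 7859 cells a library, Tnnt2, the cardiac troponin T gene, led for Myl7 and for Sln at 0.13 each. Myl4 had Chchd10 at 0.13 and Vpreb3 at 0.11 among its 5. Among the 3 genes themselves r was 0.22 for Myl4 and Myl7, 0.26 for Myl7 and Sln and 0.19 for Myl4 and Sln. At TAC-4w these were 0.040, 0.084 and 0.035. Such values are weak in sparse counts, share the depth of a spot or cell, and are given as a description.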

How the data were processed

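Raw UMI counts per gene and spot or barcode were used as the authors deposited them. The submitters' notes name Cell Ranger 7.0.0, Space Ranger 1.3.1 and the build mm10, and the file headers Cell Ranger 6.0.0 and Space Ranger 1.2.0. Tools used here were Python 3.11.15 with scipy 1.17.1 and scanpy 1.11.5, and Seurat 5.3.0 under R 4.3.3.

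Whole samples were read over all barcodes and spots. For cell types, barcodes needed 200 to 6000 genes, 500 to 30000 UMIs and less than 15% mitochondrial UMIs, and the top 3.2% of Scrublet scores per library (expected rate 7%) were dropped. Cells were clustered on 30 components of 3000 variable genes, the 3 genes excluded, at resolution 0.25, and named from 6 markers for each of 14 types. Dividing clusters and those with under 3 detected markers stayed unnamed, a rule set after the clusters were seen.

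Intervals are exact (Poisson for levels, conditional binomial for ratios, Clopper-Pearson for shares) and were tested on simulated data. These were drawn from the Poisson and binomial distributions that the intervals assume. They therefore do not test UMIs clumped in few barcodes or the spread between animals. Differences of 2-fold were counted over genes reaching 50 UMIs in either sum. The genes and lists were chosen with earlier results of these data known. Named are the 3 genes, list members and the 5 most alike. Rich barcodes, Myl4 barcodes and their markers, mesothelial barcodes and edge spots were chosen after seeing the data, as were the alternatives without the richest barcode, under 20 UMIs of the 3 genes, or with only edge spots.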

Additional observations from a re-analysis of the deposited data

Results flagged for a closer look

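For Myl7 the section and the library of 1 condition lay on opposite sides of sham. At TAC-2w the ratio to sham was 0.652 in the section and 1.21 in the library, at TAC-4w 4.61 and 0.0435, and at TAC-6w 1.91 and 0.0162. Myl4 did the same at TAC-6w, with 1.20 in the section and 0.0641 in the library. These values stand out because the same contrast went up in 1 assay and down in the other. The difference was not tested, since each side rests on a single sample. The section ratios of Myl7 at TAC-2w and TAC-6w and of Myl4 at TAC-6w have intervals that include 1.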

How the results depend on the processing

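No paired analysis was possible because each condition had 1 section and 1 library, and for the same reason no replicate could be left out. The lower levels of Myl4, Myl7 and Sln at TAC-4w and TAC-6w kept their direction under every alternative run for the libraries and the non-myocyte cells, and no alternative gave a spot of atrial type. Values that moved beyond their counting interval are listed below, with the cause not tested unless the alternative itself gives it. Values for 3 genes are in the order Myl4, Myl7 and Sln. In the sections 28 of 30 alternative ratios stayed within the interval. Edge spots only, with few UMIs, gave 2.66 for Myl4 at TAC-2w and 1.39 at TAC-4w.

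Library ratios to sham with only the barcodes that pass the filters were 1.18, 1.05 and 1.15 at TAC-2w, 0.133, 0.0576 and 0.0784 at TAC-4w and 0.0770 for Myl4 at TAC-6w. Averaging the CPM of single barcodes gave 1.14 and 1.12 for Myl7 and Sln at TAC-2w, 0.0426, 0.0202 and 0.0235 at TAC-4w and 0.0380 for Myl4 at TAC-6w. Leaving out the richest barcode gave 1.33, 1.14 and 1.18 at TAC-2w, 0.0759, 0.00722 and 0.0103 at TAC-4w and 0.0121 for Myl7 at TAC-6w. Barcodes under 20 UMIs of the 3 genes gave 1.52, 1.48 and 1.42 at TAC-2w, 0.323 for Myl4 at TAC-4w and 0.277, 0.0696 and 0.0748 at TAC-6w.

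The library over its section turned once, to 0.532 for Myl7 at TAC-4w without its richest barcode. Totals without mitochondrial and ribosomal-RNA-like features lowered it, since the sections hold more of these, to 48.5, 49.2, 7.99 and 2.87 for Myl4 in the 4 conditions and to 2.02 and 1.69 for Myl7 at TAC-4w and TAC-6w. Filtered barcodes gave 56.2 for Myl4 at TAC-2w.

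In the non-myocyte cells 31 of 90 alternative ratios moved. A mitochondrial share under 5% gave 1.66, 1.82 and 1.75 at TAC-2w, and at TAC-6w 0.287 and 0.106 for Myl4 and Sln. Immune cells only gave 1.34, 1.17 and 1.13 at TAC-2w and 0.188, 0.00912 and 0.0255 at TAC-4w. Naming cells by their own marker score gave 1.39 and 1.30 for Myl4 and Sln at TAC-2w, and for Myl4 0.370 and 0.276 at TAC-4w and TAC-6w. Thinning to 1000 UMIs gave 1.62 for Sln at TAC-2w, 0.241 and 0.0112 for Myl4 and Myl7 at TAC-4w and 0.290, 0.116 and 0.0256 at TAC-6w. UMIs per cell, which follow depth, gave 1.76, 1.72 and 1.68, then 0.173, 0.0192 and 0.0346, then 0.124, 0.0415 and 0.0340. Cells under 20 UMIs of the 3 genes gave 0.341 for Myl4 at TAC-4w.

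With filtered barcodes the share of Myl7 in its pair was 45.9, 54.1, 6.32 and 3.44% in the 4 libraries, that of Myl4 59.3, 69.2, 24.7 and 26.0%, and that of Sln 51.9 and 14.6% at sham and TAC-4w. The richest 5% of spots held 100% of the UMIs of Myl4 and Myl7 in every section, since under 5% of spots had any. The richest 1% held 58.1, 39.8, 57.1 and 36.2% for Myl4, and for Myl7 52.9 and 84.4% at TAC-4w and TAC-6w. A minimum of 200 UMIs, which tests fewer genes, left 50, 332 and 238 genes past 2-fold in the sections, where 142, 679 and 587 were. In the TAC-2w and TAC-6w libraries it left 108 and 738, where 240 and 1318 were. Totals without mitochondrial features gave 391 in the TAC-6w section. The counts limit the section ratios, with 9 to 93 UMIs of Myl4 or Myl7 in a section and at most 2 of Sln.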

Other observations

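Further lists of heart and muscle genes were read in the same comparisons, where 32.4% of all genes were past 2-fold in the TAC-4w library and 9.20% at TAC-6w. Of the 7 SERCA regulators and pumps, Sln among them, 5 could be tested in the TAC-4w library and 4 were past 2-fold lower and 1 higher, at a median ratio of 0.439, and at TAC-6w 2 of 5 were lower, at a median of 0.826. Of the 12 muscle light chain genes, Myl4 and Myl7 among them, 10 could be tested, with 3 past 2-fold lower and 1 higher at TAC-4w and 6 lower at TAC-6w. Myl1, the fast skeletal light chain gene that stood beside the atrial genes in rich barcodes, had 753 UMIs in the sham library, 1007 in TAC-2w, 38 in TAC-4w and 9 in TAC-6w. In the sections it had 366, 1359, 770 and 1856 UMIs, so its order over the conditions differed between the assays. Of the 10 skeletal muscle genes 3 could be tested in the TAC-4w and TAC-6w libraries, with 1 past 2-fold higher at TAC-4w and none at TAC-6w.

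Barcodes with a mitochondrial share of 15% or more, which the filters of the methods leave out, held Myl7 at 649 CPM in the sham library and 993 CPM at TAC-2w, against 6.27 and 7.77 CPM in the other libraries. In the barcodes that passed the filters and were kept, Myl7 was at 101, 108, 5.99 and 1.90 CPM.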
